A study of Mus musculus with 6 samples.

Results

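Sphingosine-1-phosphate is a lysophospholipid that blood and vessel cells use as a signal, and the 8 genes described here are receptors and enzymes through which it acts and is turned over. They were chosen by symbol from the 49315 genes of the count table, with no measured value in the rule. The choice was made with earlier results of these data known. S1pr1, S1pr2 and S1pr3 encode G protein-coupled receptors, Sphk1 and Sphk2 the kinases that make the lipid from sphingosine, Sgpl1 the lyase that cleaves it for good, Sgpp1 a phosphatase that returns it to sphingosine, and Spns2 an exporter that releases it from endothelial cells. The cells were bEND.3, an endothelial line from mouse brain made immortal with a viral oncogene, transfected with Lipofectamine 2000 and either a custom antisense LNA GapmeR against the lncRNA Gm39822 or a negative control LNA GapmeR, both at 100 nM. A GapmeR is a short antisense oligonucleotide whose DNA core leads RNase H to cut the paired RNA. The comparison asks which of the 8 transcripts differ in level when Gm39822 is depleted, with 4 GapmeR samples set against 2 Negative Control samples. No other GapmeR against Gm39822 was part of it, so depletion of Gm39822 and other effects of this oligonucleotide cannot be told apart.

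Endothelial cells export sphingosine-1-phosphate and also respond to it. S1pr1 couples to Gi and Rac, and its signalling holds endothelial junctions together, whereas S1pr2 couples also to G12/13, whose signalling loosens them. S1pr3 couples to Gi, Gq and G12/13 and is expressed in several vascular cell types. The level of the lipid inside a cell is set by the kinases on the one side and by the lyase and phosphatases on the other.

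The promoters of these genes are shown for the members at the ends of the measured range and for a receptor. They are regions around annotated start sites and come from RefSeq on GRCm38.p6, the build of the counts. They cover 250 bases before and 50 bases after a start site, 5′ to 3′ on the gene's strand. Which of the annotated starts bEND.3 cells use was not tested. The table matched 7 of the 8 genes. Capitals mark GGGCGG on either strand, the core of the GC box bound by Sp1-family factors. The Sphk1 window (chr11:116530850-116531149, plus strand), the outermost of 5 listed starts of the gene that rose most, and the Sgpl1 window (chr10:61147635-61147934, minus strand), of the gene with the lowest fold change, are followed by S1pr2 (chr9:20976744-20977043, minus strand).
Sphk1: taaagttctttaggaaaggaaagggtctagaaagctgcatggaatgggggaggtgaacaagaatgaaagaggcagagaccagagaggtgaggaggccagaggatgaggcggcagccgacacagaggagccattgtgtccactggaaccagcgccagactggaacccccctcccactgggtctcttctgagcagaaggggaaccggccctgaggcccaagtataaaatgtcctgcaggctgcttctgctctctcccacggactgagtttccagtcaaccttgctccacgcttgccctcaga
Sgpl1: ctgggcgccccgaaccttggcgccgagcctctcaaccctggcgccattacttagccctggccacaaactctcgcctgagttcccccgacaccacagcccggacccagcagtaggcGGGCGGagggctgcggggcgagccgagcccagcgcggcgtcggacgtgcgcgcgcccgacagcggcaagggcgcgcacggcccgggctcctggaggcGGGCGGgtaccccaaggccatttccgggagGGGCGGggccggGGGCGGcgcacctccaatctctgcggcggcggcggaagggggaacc
S1pr2: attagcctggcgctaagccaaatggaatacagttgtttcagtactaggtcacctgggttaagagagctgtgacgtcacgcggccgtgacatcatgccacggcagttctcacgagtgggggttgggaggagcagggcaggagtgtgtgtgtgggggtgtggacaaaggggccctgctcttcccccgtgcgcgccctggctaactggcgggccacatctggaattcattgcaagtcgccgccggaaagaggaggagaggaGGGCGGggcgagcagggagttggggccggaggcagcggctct
The Sgpl1 window held 4 GGGCGG matches and 75.3% G and C, the S1pr2 window 1 match and 62.0%, and the Sphk1 window 0 matches and 56.0%. Of 32851 promoter windows of the same length, 35.7% held GGGCGG. Another motif searched on both strands was CACCC, a core recognized by Kruppel-like factors. It was found once in the S1pr2 window, in 0 places in these Sphk1 and Sgpl1 windows, and in 57.5% of all windows. The windows of the other 4 Sphk1 starts held 3 or 4 CACCC matches and 0 GGGCGG matches.

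The libraries held between 29261988 and 37117934 counts, and 18234 genes that reached 5 counts in 2 or more samples were tested with edgeR's quasi-likelihood test after TMM scaling. CPM values are counts scaled to a common library size with these factors, and adjusted p-values are Benjamini-Hochberg values over all genes tested. The target itself had 2, 1, 4 and 2 counts after knockdown and 61 and 56 in the controls (log2 fold change -4.82 ± 0.41 (SE), edgeR adjusted p = 8.8e-08). Here and below, sample values stand in the order GapmeR 1 to 4, then Negative Control 1 and 2. The 14 endothelial markers had a summed level of 9415 to 10789 CPM in the GapmeR samples and 11238 to 11710 CPM in the controls. Vwf was the lowest of them, with means of 6.22 CPM and 5.23 CPM. Of these 14 markers, 7 were lower and 2 higher in the test, where 20.0% of all genes tested were lower and 25.4% higher. The same shares stand beside the calls of the other marker lists that follow. Their log2 fold changes ran from -1.33 for Emcn to 1.12 for Erg. The 13 macrophage markers summed to 231, 211, 364 and 396 CPM with the GapmeR and to 181 and 177 CPM in the controls, with 12 of 13 fold changes above 0 and 1 called. The 10 mural markers summed to 8.68 to 13.3 CPM against 2.19 to 2.34 CPM. Of these, 7 were tested and 2 called, both higher. They were Myh11, at 5.64 ± 0.296 CPM (SD, n = 4) against 0.308 ± 0.0809 CPM (SD, n = 2), and Tagln, at 2.09 ± 0.474 CPM against 0.522 ± 0.325 CPM. Among 9 lymphocyte markers, 7 had at most 3 counts in every sample, with Cd3g, Ms4a1, Ncr1 and Klrb1c at 0. Their summed level was 0.805 to 1.03 CPM against 0.292 to 0.470 CPM, mostly from Cd79a (means of 0.725 and 0.316 CPM). The 6 fibroblast markers summed to 17.2 to 92.0 CPM against 15.9 to 17.5 CPM, the highest in GapmeR sample 3. The part of these other cell type markers in the results below was not tested. Calls in all 7 tested members were kept when GapmeR samples 3 and 4 were left out together, a check added after seeing the data. It cannot test the part of these markers. In GapmeR samples 1 and 2 the macrophage sums (231 and 211 CPM) and mural sums (8.68 and 8.91 CPM) were still above both controls. The fibroblast sums (18.0 and 17.2 CPM) overlapped the controls. In bulk RNA, fewer expressing cells and less RNA per cell cannot be told apart.

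After Gm39822 knockdown, S1pr1, S1pr2, Sphk2, Sgpl1 and Sgpp1 fell, Sphk2 the least with a log2 fold change of -0.40 and Sgpl1 the most with -0.55, while Spns2 rose by 18.0% and Sphk1 rose from a level close to the limit of detection. S1pr3 was too low to be tested. Thus 7 of the 8 members were tested, of which 5 were lower and 2 higher at an edgeR adjusted p under 0.05, where 45.3% of all genes tested were called, 20.0% lower and 25.4% higher. The GapmeR samples lay all above or all below both controls in these 7 genes, as they did in 59.2% of all genes tested. With a minimum of 1.5-fold added, 1 of the 7 passed, Sphk1, against 25.4% of all genes. The largest fall was 1.46-fold.

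**Figure D1:**
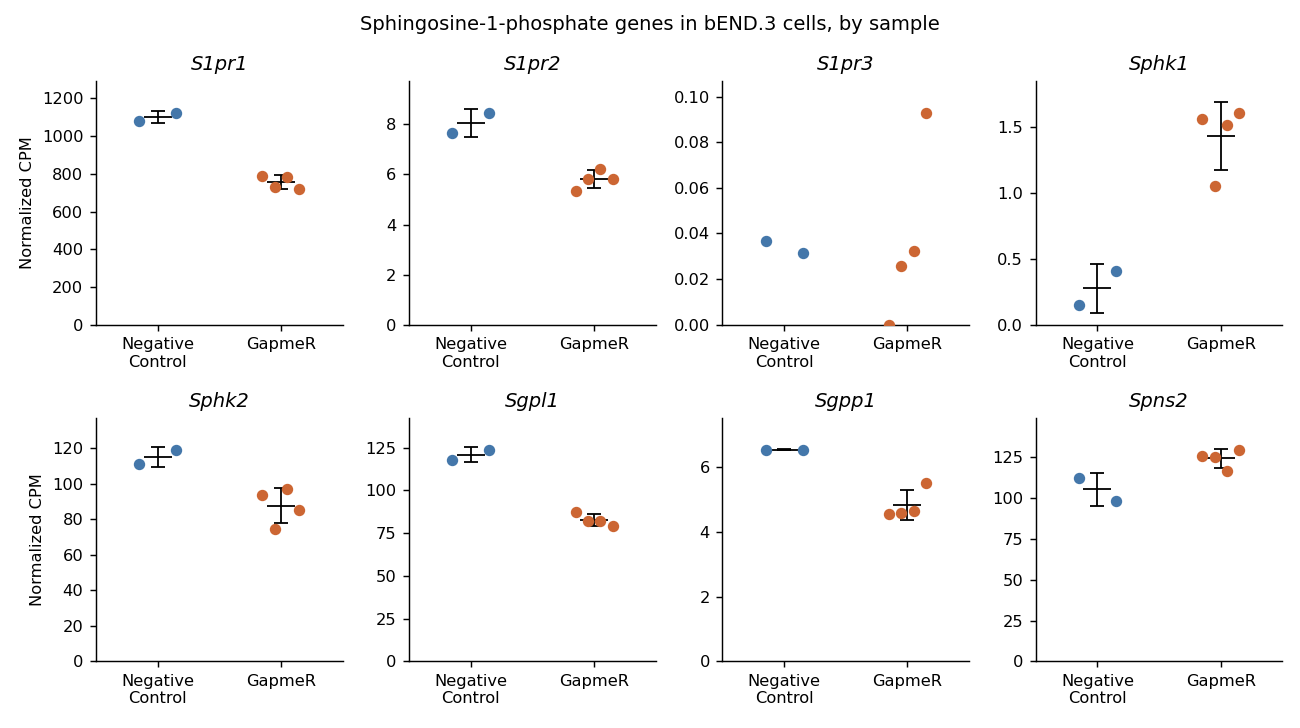
Normalized CPM of the 8 genes in each sample, with the y axis starting at 0 in every panel. Points are samples, and lines with bars are the mean ± SD of 4 GapmeR and 2 Negative Control samples (left out for S1pr3, which has at most 3 counts in a sample). The GapmeR points of S1pr1 lie between 719 and 791 CPM, below the controls at 1081 and 1123 CPM, and those of Sphk1 lie above both controls.

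S1pr1 (ENSMUSG00000045092, chromosome 3 of mm10 from 115710433 to 115715055) was by far the most abundant of the 8 transcripts. It had 26789, 28506, 24268 and 23224 counts after knockdown against 29600 and 35852, or 791, 732, 782 and 719 CPM against 1081 and 1123 CPM. All GapmeR samples were below both controls, and the spread within a group was small beside the gap. Means were 756 ± 35.8 CPM (SD, n = 4) for the GapmeR and 1102 ± 30.3 CPM (SD, n = 2) for the controls. S1pr1 thus fell by 31.4%, a log2 fold change of -0.54 ± 0.08 (SE, edgeR adjusted p = 2.3e-05). With 15 ways to split 4 and 2 samples, the exact permutation p cannot go below 0.0667, its value for S1pr1 and for each of the other 6 tested members (2-sided). The S1pr1 call was kept under all 15 alternatives of processing and of sample choice, with log2 fold changes of -0.56 to -0.40.

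S1pr2 (ENSMUSG00000043895, chromosome 9 from 20965952 to 20976793) was expressed at a much lower level. Its values were 5.34, 5.83, 6.22 and 5.82 CPM after knockdown, from 181 to 227 counts, and 7.67 and 8.46 CPM in the controls, from 210 and 270 counts. The GapmeR samples were again all below the controls. S1pr2 changed by a log2 fold change of -0.48 ± 0.13 (SE, edgeR adjusted p = 0.0059). The call was lost without Negative Control 2, where the log2 fold change was -0.38 (edgeR adjusted p = 0.114).

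S1pr3 (ENSMUSG00000067586, chromosome 13 from 51408618 to 51422797) had 0, 1, 1 and 3 counts after knockdown and 1 count in each control. These values lie at or under 3 counts, which corresponds to 0.0771 to 0.110 CPM in these libraries, so a difference was not detectable at this depth. Of the receptors outside the 8 genes, S1pr4, known from lymphocytes, had 25 to 42 counts after knockdown and 32 and 30 in the controls. Its log2 fold change was -0.04 ± 0.31 (SE, edgeR adjusted p = 0.934), and the groups overlapped. S1pr5, known from natural killer cells and oligodendrocytes, had 2 to 6 counts after knockdown and 1 and 2 in the controls and did not pass the count filter.

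Among the counts on S1pr1, S1pr2 and S1pr3, S1pr1 held 99.3%, 99.2%, 99.2% and 99.2% after knockdown and 99.3% and 99.2% in the controls. The 95% Clopper-Pearson intervals of these shares, which cover counting error only, all lay between 99.1% and 99.4%. The difference between the group means was -0.04 percentage points (2-sided exact permutation test, p = 0.467). S1pr2 had 0.769 ± 0.0627 counts per 100 S1pr1 counts (SD, n = 4) after knockdown and 0.731 ± 0.0309 (SD, n = 2) in the controls, and the groups overlapped. The 2-sided exact permutation test of this ratio, which was chosen after the values were seen, gave p = 0.4.

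The sphingosine kinases moved in opposite directions. Sphk1 (ENSMUSG00000061878, chromosome 11 from 116530836 to 116536675), the mostly cytosolic kinase that growth factors activate, had 53, 41, 47 and 52 counts after knockdown against 4 and 13 in the controls. In CPM these were 1.56, 1.05, 1.52 and 1.61 against 0.146 and 0.407. Every GapmeR sample was above both controls. For Sphk1 the log2 fold change was 2.31 ± 0.39 (SE, edgeR adjusted p = 0.00015), or 4.97-fold. From the 193 and 17 summed counts the fold was 4.95, with a 95% interval of 3.01 to 8.67 for counting error only. Sphk1 entered the test through its GapmeR counts, since just 1 control reached 5 counts. The size of its change rests on the controls, with a log2 fold change of 1.82 without Negative Control 1 and 3.28 without Negative Control 2, both past the test.

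Sphk2 (ENSMUSG00000057342, chromosome 7 from 45709463 to 45718002), the kinase found also in the nucleus and mitochondria, carried nearly all kinase counts. It was at 93.8, 74.7, 96.8 and 85.1 CPM after knockdown and at 111 and 119 CPM in the controls. All GapmeR samples were below the controls, with the lowest value in GapmeR sample 2. For Sphk2 the log2 fold change was -0.40 ± 0.09 (SE, edgeR adjusted p = 0.0026), and without Negative Control 2 it was -0.32 (edgeR adjusted p = 0.0775). In the GENCODE annotation of GRCm39, 30.9% of the exonic bases of Sphk2 lie opposite exons of Rpl18, a ribosomal protein gene at 1298 ± 76.2 CPM (SD, n = 2) in the controls and 1162 ± 63.1 CPM (SD, n = 4) after knockdown. Rpl18 was not called (log2 fold change -0.16, edgeR adjusted p = 0.119). A further 7.24% of the exonic bases of Sphk2 lie opposite exons of Dbp. Dbp was lower, with a log2 fold change of -0.33 (edgeR adjusted p = 0.0190). The strand setting of the counts is not given in the sources used here. The part of reads from these overlaps in the Sphk2 value was not tested.

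Sphk1 made up 1.64%, 1.39%, 1.54% and 1.86% of the counts on both kinases after knockdown and 0.131% and 0.340% in the controls. This ratio needs no scaling between libraries. The mean share was 1.61 ± 0.195% (SD, n = 4) against 0.236 ± 0.148% (SD, n = 2), with no overlap (2-sided exact permutation test, p = 0.0667, the smallest possible). With Sphk1 above and Sphk2 below both controls in every GapmeR sample, this separation had to follow. The share describes the opposite calls of the kinases and is no further test of them. The lowest bound of the 95% Clopper-Pearson intervals in a GapmeR sample was 1.00% and the highest bound in a control 0.581%, for counting error only, which is less than the spread between replicates over all genes. Since Sphk1 was so much the smaller, the summed level of both kinases followed Sphk2 and was 89.0 ± 10.1 CPM (SD, n = 4) with Gm39822 depleted and 116 ± 5.88 CPM (SD, n = 2) without.

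Sgpl1 and Sgpp1 both fell. Another phosphatase of the lipid outside the 8 genes, Sgpp2, named after its values were seen, had 24 to 35 counts after knockdown and 3 and 1 in the controls, a log2 fold change of 3.49 ± 0.53 (SE, edgeR adjusted p = 5.6e-05). Sgpl1 (ENSMUSG00000020097, chromosome 10 from 61098642 to 61147684), the lyase of the endoplasmic reticulum, was at 87.4, 81.9, 81.9 and 79.4 CPM after knockdown and 118 and 124 CPM in the controls. Its GapmeR samples formed a tight cluster below the controls. Sgpl1 fell by 31.7%, a log2 fold change of -0.55 ± 0.07 (SE, edgeR adjusted p = 8.4e-06), and the call was kept under all 15 alternatives. Sgpp1 (ENSMUSG00000021054, chromosome 12 from 75714248 to 75735729), which dephosphorylates the lipid, had 154, 179, 144 and 178 counts after knockdown against 179 and 209 in the controls, or 4.54, 4.60, 4.64 and 5.51 CPM against 6.53 and 6.55 CPM. All 4 lay below the controls, GapmeR sample 4 nearest to them. The log2 fold change was -0.44 ± 0.14 (SE, edgeR adjusted p = 0.0167). The Sgpp1 call was lost under 3 alternatives, without Negative Control 1 (log2 fold change -0.42, adjusted p = 0.0997 from edgeR), without Negative Control 2 (-0.42, adjusted p = 0.118) and with scaling by library size only (-0.29, adjusted p = 0.105).

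Spns2 (ENSMUSG00000040447, chromosome 11 from 72451638 to 72489976), the exporter that supplies sphingosine-1-phosphate to lymph and plasma, was at 126, 125, 116 and 130 CPM after knockdown and 112 and 98.2 CPM in the controls. The GapmeR samples lay above the controls by a narrow margin, 116 CPM against 112 CPM at the nearest. Its log2 fold change was 0.24 ± 0.08 (SE, edgeR adjusted p = 0.0192), or 18.0% higher. Without Negative Control 2 it was 0.17 (edgeR adjusted p = 0.245), and with scaling by library size only 0.39, which is past the test. Scaling by library size only raised the log2 fold change of all genes by a median of 0.15 and moved the calls from 4625 higher and 3643 lower to 6106 and 2135.

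**Figure D2:**
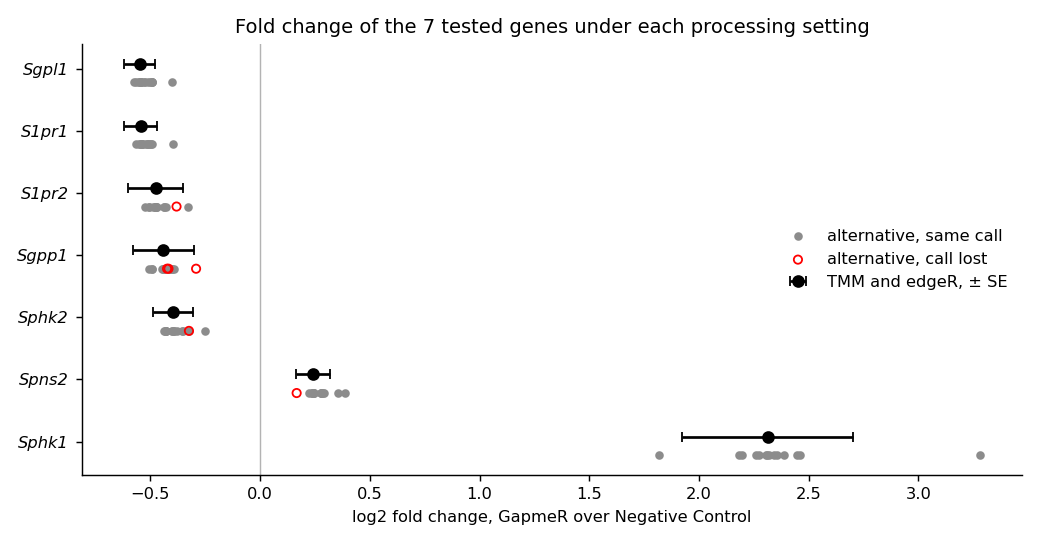
Log2 fold changes of the 7 tested genes, GapmeR over Negative Control. Black points are the TMM and edgeR values ± standard error. Small points below them are the alternatives of processing and of sample choice. These are red and open where the adjusted p-value was no longer under 0.05. No alternative crossed 0, and Sphk1 has the widest range, 1.82 to 3.28.

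Ratios within a library, chosen after the values were seen, do not depend on the scaling. Per 100 S1pr1 counts, Spns2 had 15.9, 17.1, 14.9 and 18.0 counts after knockdown against 10.4 and 8.74 in the controls, with a mean 1.72-fold higher after knockdown and no overlap. This describes the opposite calls of Spns2 and S1pr1 above and is no further test of them. Sgpl1 had 11.0, 11.2, 10.5 and 11.0 counts per 100 S1pr1 counts after knockdown against 10.9 and 11.0 in the controls. The lyase and the receptor thus held nearly the same ratio in every library, with group means of 10.9 ± 0.317 (SD, n = 4) and 11.0 ± 0.0887 (SD, n = 2). Sgpl1 counts per 100 Sphk2 counts overlapped between the groups, at 95.2 ± 10.5 (SD, n = 4) and 105 ± 1.45 (SD, n = 2). The summed level of Sgpl1 and Sgpp1 followed Sgpl1, by far the larger. This sum was 87.5 ± 3.06 CPM (SD, n = 4) with Gm39822 depleted and 127 ± 4.31 CPM (SD, n = 2) without.

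**Figure D3:**
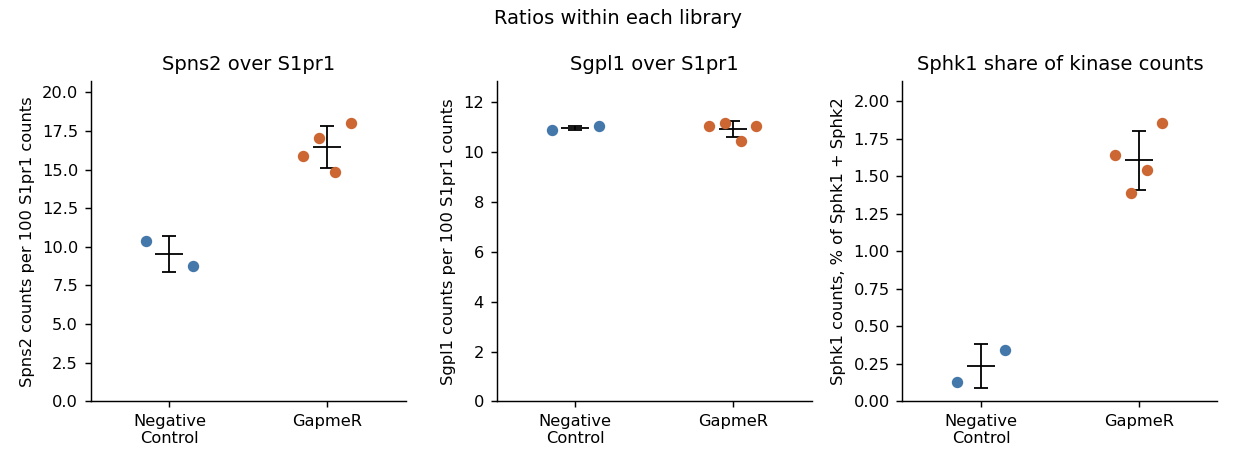
Ratios of counts within each library: Spns2 per 100 S1pr1 counts, Sgpl1 per 100 S1pr1 counts, and Sphk1 as a percentage of Sphk1 and Sphk2 counts. Points are samples, and bars the mean ± SD of 4 GapmeR and 2 Negative Control samples. The groups are apart in the left and right panels and overlap in the middle panel at about 11.0.

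Levels of different genes were compared per kb of exons, with lengths from the GENCODE annotation of GRCm39. In the controls S1pr1 stood first with 267 ± 7.33 CPM per kb (SD, n = 2), higher than 99.2% of the 17965 tested genes with a length. Sgpl1 followed at 18.5 ± 0.657, then Spns2 at 15.7 ± 1.49 and Sphk2 at 15.5 ± 0.764 CPM per kb, the last pair overlapping. Sgpp1 at 1.14, S1pr2 at 0.793, Sphk1 at 0.0499 and S1pr3 at 0.00695 CPM per kb came last. The S1pr2 model counts 10170 exonic bases, nearly the whole span of the gene, so its level per kb is low if shorter transcripts prevail. After knockdown the order at the top differed, with S1pr1 at 183 ± 8.65, Spns2 at 18.5 ± 0.836, Sgpl1 at 12.6 ± 0.513 and Sphk2 at 11.8 ± 1.33 CPM per kb (SD, n = 4). Spns2 was then above Sgpl1 and Sphk2 in all 4 GapmeR samples, and the latter overlapped.

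**Figure D4:**
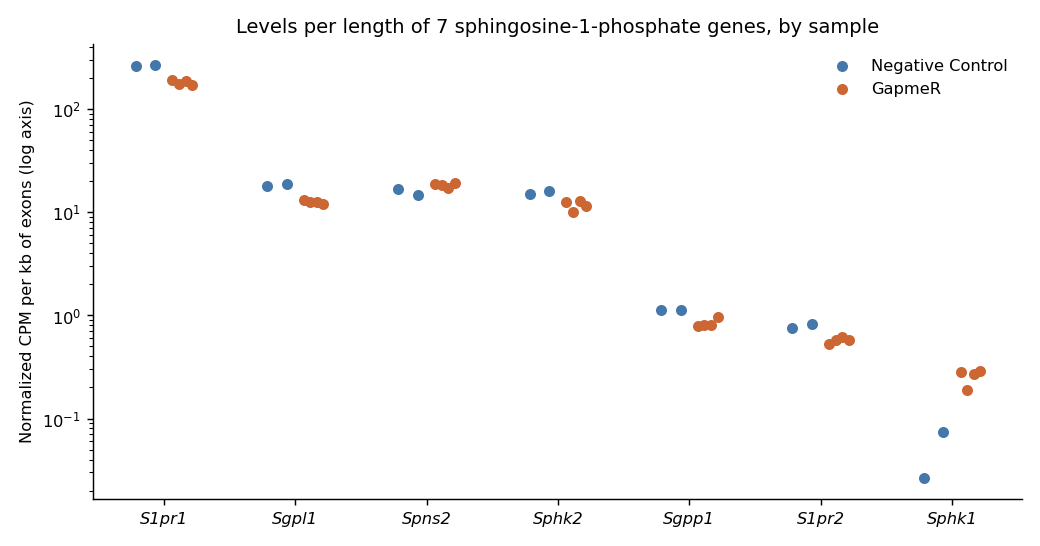
Normalized CPM per kb of exons of 7 of the genes in each sample, on a log axis, with Negative Control samples in blue and GapmeR samples in orange. S1pr3 is left out because a sample had 0 counts. S1pr1 lies above every other gene in both groups, and Spns2 exceeds Sgpl1 in the GapmeR samples and not in the controls.

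Some exons of the other members also lie opposite another gene in GRCm39. The overlap was 3.46% of the exonic bases for Sphk1 (Sphkos), 2.00% for Spns2 (Mybbp1a, log2 fold change -0.14, not called), 1.21% for S1pr1 (Gm9889), 1.20% for S1pr2 (Mrpl4) and 1.16% for Sgpl1 (Tbata). These shares are small beside that of Sphk2. The 3 tested genes of at least 10 CPM whose log2 CPM followed S1pr1 most closely over the 6 samples were Gfod1, Fzd5 and Rbm43, of 8870 compared. Their root-mean-square differences from the centred S1pr1 profile were 0.0201, 0.0213 and 0.0216 on the log2 scale, and their log2 fold changes were -0.54, -0.56 and -0.56.

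The other genes of the pathway were taken from lists written by hand. The list of sphingosine-1-phosphate transport, carriage and phosphatases had 11 genes tested, of which 5 were higher and 4 lower, where 45.3% of all genes tested were called, and its median was -0.15 on the log2 scale against 0.03 over all genes tested. Abcc1, a multidrug transporter that can export the lipid, rose to 334 ± 26.2 CPM (SD, n = 4) and was at 172 ± 4.98 CPM (SD, n = 2) in the controls, a rise of 0.96 on the log2 scale (edgeR adjusted p = 1.7e-07). Mfsd2b, the exporter of red cells and platelets, had 65, 45, 50 and 76 counts after knockdown against 4 and 2 in the controls, 17.1-fold higher from summed counts with a 95% interval of 7.76 to 47.2 for counting error only. Of its exonic bases, 29.0% lie opposite Wdcp. Mfsd2b, Sgpp2 and Apom, a plasma carrier of the lipid with 2 and 5 control counts that was named after its values were seen, passed the count filter through their GapmeR counts. Under a stricter filter, 10 counts in each of the 6 samples, 2 genes of this list were higher. Mfsd2a, a lysolipid transporter of the blood-brain barrier, was at 0.804 ± 0.182 CPM (SD, n = 4) and 1.45 ± 0.0346 CPM (SD, n = 2), and its call (edgeR adjusted p = 0.0203) was lost with DESeq2's Wald test (adjusted p = 0.0559). It was also lost without GapmeR 4, without Negative Control 1 and without Negative Control 2, where the adjusted p-values from edgeR were 0.0519, 0.0937 and 0.134.

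In the list of sphingosine and ceramide supply, 20 of 23 genes were tested, 3 higher and 8 lower, beside 45.3% called over all genes. Its median was -0.18. Among the higher genes, Cers3, named after its values were seen, had 23 to 35 counts after knockdown and 5 and 1 in the controls. Cers3 passed the count filter through its GapmeR counts. Kdsr, the reductase of the first steps of sphingoid base synthesis, fell to 23.6 ± 4.05 CPM (SD, n = 4) from 39.2 ± 1.67 CPM (SD, n = 2), and Acer2, a Golgi ceramidase that frees sphingosine, to 6.48 ± 0.268 CPM from 10.5 ± 0.897 CPM. Their log2 fold changes were -0.73 and -0.70 (edgeR adjusted p = 0.00061 and 0.00014). Cers1, a ceramide synthase, was higher by 2.55 on the log2 scale, but 68.5% of its exonic bases are shared with Gdf1 on the same strand, and the reads of these genes cannot be told apart. Among the 22 genes of complex sphingolipid synthesis and breakdown, 4 were higher and 9 lower, beside the same 45.3%, with a median of -0.12. Gla, a lysosomal enzyme that splits galactose from glycosphingolipids, fell to 42.9 ± 2.35 CPM (SD, n = 4) from 122 ± 4.59 CPM (SD, n = 2), with -1.51 as its log2 fold change (edgeR adjusted p = 7.6e-11). Smpd3, a neutral sphingomyelinase, had 60 to 77 counts after knockdown and 16 and 11 in the controls, higher by 2.13 on the log2 scale (edgeR adjusted p = 2.0e-05). It was 1.80 without Negative Control 2 and 2.55 without Negative Control 1.

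Of the 23 G proteins and downstream effectors through which these receptors act, 1 was higher and 10 lower, beside 45.3% of all genes called in either direction, with a median of -0.10. Plcb1, a phospholipase C driven by Gq, fell by 1.47 on the log2 scale, and Arhgef11, a guanine nucleotide exchange factor driven by G12/13, by 0.94 (edgeR adjusted p = 6.9e-09 and 9.4e-07). With scaling by library size only, this list had 5 higher and 5 lower. In the list of receptor desensitization and trafficking, 12 of 13 genes were tested, 1 higher and 5 lower, again beside 45.3% over all genes, with a median of -0.16. Rgs2 and Rgs16, which speed the shut-off of G proteins, and Grk5, a receptor kinase, fell by 1.26, 0.83 and 0.61 on the log2 scale (edgeR adjusted p = 5.2e-08, 1.9e-07 and 2.6e-06). Exons of genes on the opposite strand cover 12.2% of the exonic bases of Arhgef11 (Lrrc71, higher by 3.95 on the log2 scale), 18.7% of Rgs16 (Gm28513) and 11.3% of Rgs2 (Gm41964).

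The receptors of lysophosphatidic acid had 5 of 6 genes tested, 3 higher and 1 lower, beside 45.3% of all genes called. Lpar5, the remaining higher gene and named after its values were seen, had 8 to 16 counts after knockdown and 2 and 0 in the controls and passed the count filter through its GapmeR counts. Lpar1, at 5.02 ± 0.493 CPM (SD, n = 2) in the controls, and Lpar2, at 1.14 ± 0.194 CPM, were higher after knockdown by 1.27 and 2.17 on the log2 scale (edgeR adjusted p = 1.8e-06 and 1.9e-07). Lpar4 fell from 3.84 ± 0.635 CPM to 1.97 ± 0.387 CPM (edgeR adjusted p = 0.0012), and its call was lost without Negative Control 2 (adjusted p = 0.0567). Whether Lpar1 and Lpar2 differ from S1pr1 and S1pr2 in their response was not tested beyond these values.

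**Figure D5:**
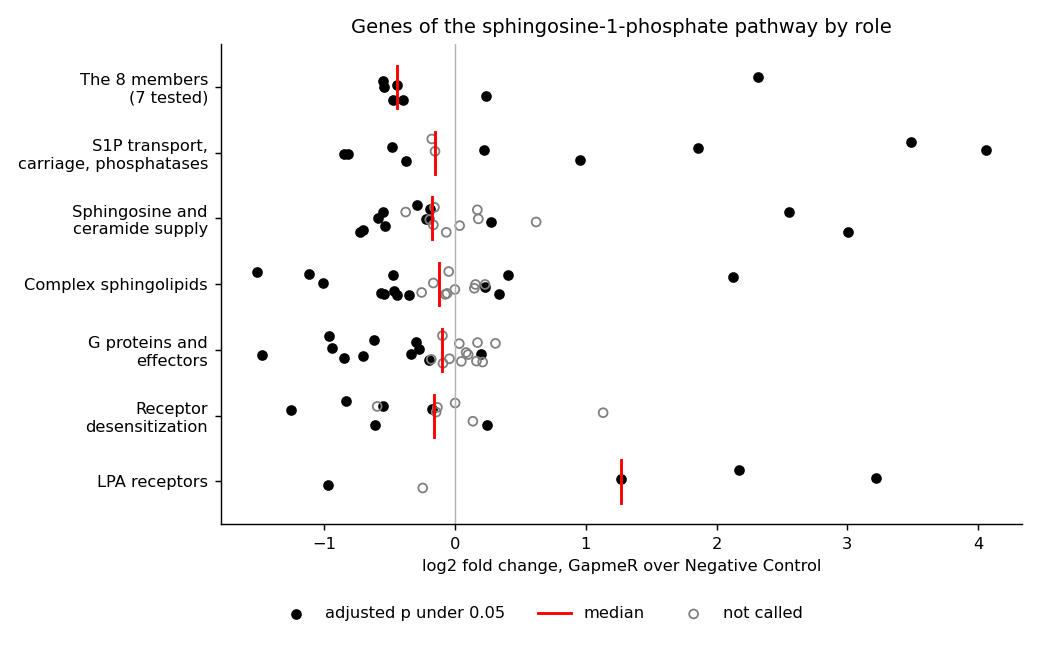
Log2 fold changes, GapmeR over Negative Control, of the tested members and of the tested genes in 6 hand-written lists of the pathway. Filled points passed edgeR at an adjusted p under 0.05, open points did not, and red lines are medians, which lie at -0.44 for the members and between -0.18 and 1.27 for the lists.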

How the data were processed

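Total RNA was ribodepleted and sequenced in pairs by the authors, who aligned to mm10 with STAR and Ensembl models, and the submitters' processing notes name Trimmomatic 0.36, STAR 2.5.2b and Subread 1.5.2. The counts that the authors deposited are whole reads for each gene, with no normalization. The strand setting and Ensembl release are not given in the sources used here. Left unused was 1 column of counts whose name has the form of the control columns but matched no label. The study's design text gives 4 samples per group, and the labels used here give 4 GapmeR and 2 Negative Control samples. Nothing says that they came from separate cultures, so p-values measure the spread between these samples, which may be technical. Replicates differed by more than sampling noise (chi-square per degree of freedom 5.41 to 25.2). Rows without a gene name held 0.0025% of the counts.

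Counts were tested in R 4.3.3 with edgeR 4.0.16 (robust quasi-likelihood, TMM factors of 0.931 to 1.05, at least 5 counts in at least 2 samples). The common biological coefficient of variation was 8.42%. The standard error is the log2 fold change divided by the square root of F. Alternatives were 3 other scalings, DESeq2 1.42.0's Wald test (the study's tool), limma-voom (limma 3.58.1), 2 other filters, the replicate number as a block, and leaving out each sample. A further alternative, added after seeing the data, left out GapmeR samples 3 and 4 together and is counted with the others. Positions and promoters are from RefSeq (GRCm38.p6), which matched 8 and 7 of 8 members. The fit was tested on simulated data, with far fewer changed genes than were called here and none at counts as low as those of Sphk1. Named genes are the 8 members, Gm39822, S1pr4, S1pr5, up to 3 genes per list with the largest called change at a mean of at least 1 CPM, and the 3 genes most like S1pr1. Some genes that the rule names are not reported here. The members and lists were chosen with earlier results of these data known.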

Additional observations from a re-analysis of the deposited data

Results flagged for a closer look

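In 3 of 9 values checked over the 4 GapmeR samples, 1 sample stood apart from the others by the gap between it and its neighbour as a share of the range, where chance marks about 1 group in 20. GapmeR sample 2 was lowest for Sphk1, at 1.05 CPM against 1.52 to 1.61 CPM in the others, a gap of 0.830 of the range and just past the limit for 4 samples. GapmeR sample 4 was highest for Sgpp1, at 5.51 CPM against 4.54 to 4.64 CPM, a gap of 0.899. For the share of S1pr1 among receptor counts, GapmeR sample 1 was highest, a gap of 0.843, although all shares rounded to 99.2% or 99.3%.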

How the results depend on the processing

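No fold change of the members changed its direction in 104 comparisons with an alternative, and 98 kept the call. With scaling by library size only, Sgpp1 was no longer called (-0.29), the median of the members moved from -0.44 to -0.29 (and to -0.49 with the block), and 2135 genes were lower against 3643. With at least 10 counts in every sample Sphk1 was removed, which left 1 member higher. Per kb of exons, the difference in the Sphk1 share was 1.83 percentage points against 1.37. With 1 sample left out, the log2 fold change was -0.53 to -0.38 for S1pr2, -0.43 to -0.32 for Sphk2, -0.51 to -0.40 for Sgpp1 and 0.17 to 0.36 for Spns2, with 1 to 2 members called higher, 2 to 5 lower, a median of -0.47 to -0.38, and 1930 to 3949 genes lower. The lowest of these counts came without Negative Control 2, which left S1pr1, Sgpl1 and Sphk1 called. Without Negative Control 1, 2262 genes were lower. For the list counts, 35 of 210 comparisons moved by over 1.5 times, over ranges of 2 to 5 higher for transport (5 in the report), 2 to 5 higher (3) and 5 to 10 lower (8) for ceramide supply, 0 to 5 higher (1) and 5 to 10 lower (10) for G proteins, 0 to 2 higher (1) and 3 to 5 lower (5) for desensitization, and 0 to 2 lower (1) for lysophosphatidic acid receptors. Deviations of same-numbered samples had correlations of -0.11 for number 1 and 0.17 for number 2 across 8870 genes, and no source ties the numbers to a shared culture or day, so the samples were treated as sharing a number only. The replicate block, on 4 samples with 1 residual degree of freedom, changed no call of a member, and left 5 ceramide supply genes lower and 0 G protein genes higher. Without GapmeR samples 3 and 4 the counts of members called were again 2 and 5, and S1pr1 was at -0.51. Depth limits S1pr3 and the controls' Sphk1 most.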
